A study of Rattus norvegicus with 180 samples.

Results

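Cervical and mesenteric lymph nodes are both filled with lymphocytes, but the former drain the head and neck and the latter drain the intestine. They were compared here for all miRNAs of an array, with 6 of the 180 arrays of an expression atlas of the male rat. The 3 cervical and 3 mesenteric arrays came from rats 4, 5 and 6, so that each rat gave 1 array per node. The rats were 10-week-old males of the Sprague-Dawley strain, an outbred stock, perfused with saline before the organs were taken, and carried no transgene or treatment. Each array (1 color, Agilent) was hybridized with 0.1 µg of labelled total RNA of the whole node, so that the level of a miRNA is an average over all cell types in the tissue. In such bulk RNA, fewer cells of a type and less RNA per cell cannot be told apart.

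A miRNA is cut from a hairpin transcript and guides a silencing complex to messenger RNAs, mainly through bases 2 to 8 from its 5′ end, the seed. Many miRNAs mark a cell lineage: miR-150 and miR-142-3p are abundant in lymphocytes and other blood cells, members of the miR-200 family in epithelium, and miR-126 in endothelium. The genes of miR-10a and miR-10b lie inside clusters of HOX genes, which encode the factors that give positions along the body axis their identity, and the miR-17-92 cluster is known for high expression in proliferating lymphoid cells.

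The mature sequences of miRNAs on which the comparison turned are given from RefSeq (build GRCr8), 5′ to 3′, with the seed in capitals. Of 35 names looked up in these records, 31 matched. The first pair is the miRNA with the largest difference between the nodes and its closest relative. It is followed by the 5 miRNAs that passed the test in the other direction, and by miR-1224, which had a similar difference.
miR-10a-5p: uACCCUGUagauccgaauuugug
miR-10b-5p: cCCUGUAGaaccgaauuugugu
miR-877: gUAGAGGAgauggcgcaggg
miR-3593-3p: cUUCAACCuuaagggggccuca
miR-290: uCUCAAACuaugggggca
miR-3584-5p: gGGAGGAGuccaggaggc
miR-211-3p (miR-211* on the array): gGCAAGGAcagcaaaggggg
miR-1224: gUGAGGACuggggagguggag

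The sequence of miR-10a-5p lies at chr10:81779730-81779752 (plus strand), between Hoxb5 and Hoxb4 and inside neither, and that of miR-10b-5p at chr3:80035886-80035907 (plus strand), within the annotated span of Hoxd4. As listed, miR-10b-5p starts 2 bases later than miR-10a-5p. Aligned without gaps over 21 bases they differ at 1 base, U12A, counted from the 5′ end of miR-10a-5p. The listed seeds differ because of the different starts. Among the other miRNAs, miR-877 (chr20:2816284-2816303, plus strand) lies within Abcf1, miR-1224 (chr11:93811355-93811375, minus strand) within Vwa5b2, miR-211-3p (chr1:127189389-127189408, plus strand) within Trpm1, miR-290 (chr1:74880106-74880123, minus strand) within the span of Nlrp12 and miR-3584-5p (chr1:256727582-256727599, minus strand) within that of Itprip. For miR-3593-3p (chr6:78987770-78987791, minus strand) the annotation used gave no gene over the site. The G content of miR-877, miR-3584-5p, miR-211-3p and miR-1224 was 55.0%, 55.6%, 50.0% and 61.9%, against a median of 23.8% over 693 mature sequences of the same records. For miR-290 and miR-3593-3p it was 27.8% and 22.7%.

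The labels of the tissue were checked first with miR-150 and miR-142-3p. The scaled signal used below is the array signal relative to the 75th percentile of 37 miRNAs found on every array of the atlas, with a floor at 10.8, and a miRNA is called detected where more than 50% of its spots stood well above background. By this rule 173, 145 and 150 miRNAs were detected in the cervical nodes of rats 4, 5 and 6, and 178, 183 and 141 in the mesenteric nodes, with 0 saturated spots. Both nodes of a rat were scanned on the same day and each rat on another, so that the rat block takes up the day, and in rats 4 and 6 both nodes were on 1 slide. The scaled signal of miR-150 was 3245, 4794 and 4857 in the cervical nodes, and 4348, 5104 and 5244 in the mesenteric nodes. For miR-142-3p the signals were 14498, 21695 and 25537 in the cervical nodes and 14905, 21308 and 18156 in the mesenteric nodes. Among 55 organs, miR-150 was highest in the mesenteric node and second highest in the cervical node, and miR-142-3p was exceeded only in thymus, where its mean was 32160. Neither miRNA passed the test between the nodes (limma, log2 difference cervical minus mesenteric -0.21 for miR-150 and 0.16 for miR-142-3p, adjusted p = 0.640 and 0.718). Without the cervical array of rat 4, described next, an unpaired fit gave -0.02 and 0.39 (limma adjusted p = 0.934 and 0.266).

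The cervical array of rat 4 stood apart from the other 5 node arrays. It carried 12 of 16 miRNAs of an epithelial list (11 of which were detected on no other node array), among them miR-200a at 1304, miR-200b at 1263, miR-429 at 489, miR-141 at 471, miR-375 at 292 and miR-96 at 199. On the other 5 node arrays miR-200a, miR-200b, miR-429 and miR-375 were at the floor, and miR-141 did not exceed 14.3. The probe set miR-200c_v15.0 (a suffix that marks the version of the probe design) gave 1501 on this array, and 30.1 to 41.1 on the others. The log2 signals of the cervical array of rat 4 correlated with the other node arrays between 0.897 and 0.937 over 425 miRNAs. The cervical arrays of rats 5 and 6 correlated with each other at 0.993. The value of 0.897 was that with the mesenteric array of rat 5, whose highest correlation with a node array was 0.966. The mesenteric arrays of rats 4 and 6 correlated at 0.997. On the mesenteric array of rat 5, miR-129-1* was at 122 and miR-129-2* at 77.3, and both were at the floor on the other 5 node arrays.

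The rule of the comparison asked whether the cervical array of rat 4 held neighbouring gland tissue, and its levels were set beside those of other organs as a description. In the mandibular gland of the same rat, a salivary gland that lies next to the cervical nodes, miR-200a was at 4383, miR-200b at 4290 and miR-375 at 875. The 12 epithelial miRNAs detected on the node array had between 24.9% and 37.6% (median 30.2%) of their signal in that gland. Over all organs other than the nodes, the ratio between the highest and the lowest of the 12 shares was smallest for the mandibular gland (1.56, mean of 3 rats), followed by seminal vesicle (1.64), parotid gland (2.75) and sublingual gland (3.95).

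A mixture of node and organ was also fitted to the log2 signals of that array over the 425 miRNAs, with the cervical nodes of rats 5 and 6 as the node. The best share was 21% of mandibular gland, which left 11.0% of the squared deviation from the node profile, and seminal vesicle and sublingual gland left 26.0% and 27.1%. Of the 425 miRNAs, 17 lay more than 1 (log2) from the node profile and 4 from the mixture. These 4 were below it, with log2 signals of 3.44 for miR-154, 3.44 for miR-379, 4.09 for miR-136 and 5.13 for miR-3584-5p, where the mixture gave 4.70, 4.73, 5.46 and 6.39. Fitted with the mandibular gland of rats 4, 5 and 6 in turn, the share was 27%, 23% and 15%. The same kind of fit gave a share of 0% for each of the other 5 node arrays, with the remaining arrays of the same node, the cervical array of rat 4 left out, as the node. For the cervical nodes of rats 5 and 6 this profile was a single array, that of the other rat. Over miRNAs, the deviation of the array from the node correlated with the difference mandibular gland minus node at 0.811, and next with that of the part of the prostate called other (0.759) and of seminal vesicle (0.754), as a description. On linear signals, in which the brightest miRNAs weigh most, the share was 40.2% and the order of organs differed, since thyroid left 6.28%, lung 8.12%, mandibular gland 8.72% and kidney 9.17%, so that the gland was not set apart on this scale. Of markers of other neighbours, all 8 muscle miRNAs (miR-1 and miR-133a among them) and 6 of 8 neural miRNAs (miR-124 and miR-9 among them) were at the floor on this array. The same held for 4 of 5 miRNAs of the acinar list (miR-216a and miR-217 among them), but these were at the floor in the 3 salivary glands as well and do not bear on gland tissue. For a part of the results below, the value without this array is also given.

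**Figure D1:**
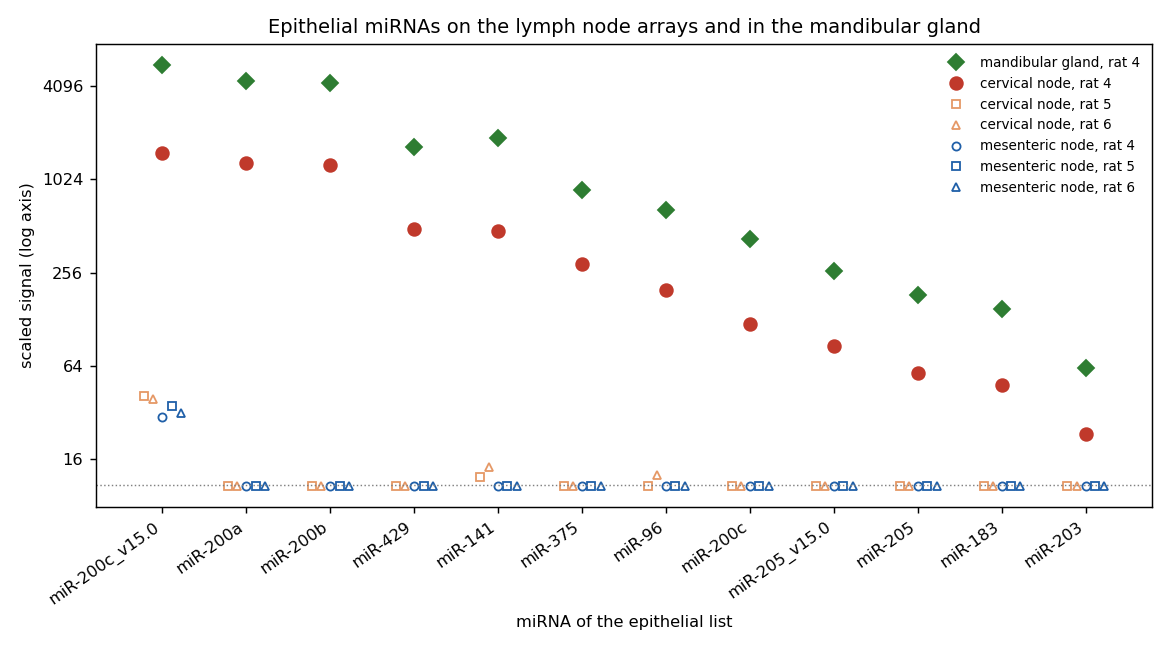
Scaled signal (log axis) of the 12 epithelial miRNAs detected on the cervical array of rat 4, for the 6 node arrays and for the mandibular gland of rat 4, with 1 point per array and the floor as a dotted line. The array of rat 4 lay below the gland for each of the 12, and above the other 5 node arrays, as the choice of miRNAs detected on it makes likely.

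The comparison of the nodes was made with limma, with the rat as a block, over 146 miRNAs that every array of 1 node or of both nodes detected. Adjusted p was under 0.05 for 6 miRNAs (4.11%). Of these, 5 were higher in the cervical node (3.42%) and 1, miR-10a-5p, was higher in the mesenteric node (0.685%). Of the 5, 4 were tested only because the cervical arrays detected them. Over the 130 miRNAs detected on all 6 arrays, miR-10a-5p and miR-3584-5p were called. At an unadjusted p under 0.05 there were 32 of 146 (21.9%), 15 in the cervical (10.3%) and 17 in the mesenteric direction (11.6%). The median difference over all tested was -0.01, and 140 of the 146 did not pass. Leaving out rat 4, 5 or 6 in turn, 0, 6 and 2 were called, and leaving out only the cervical array of rat 4 in an unpaired fit, 18 were (16 and 2). With scaling by the miRNAs detected on all 6 node arrays, 8 were higher in the cervical and 11 in the mesenteric node, and all 6 above were among them. The replicates are different rats. The p-values refer to the spread among 3 animals, moderated by limma with that of the other miRNAs tested. The total degrees of freedom were 5.66, of which 2 were residual.

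**Figure D2:**
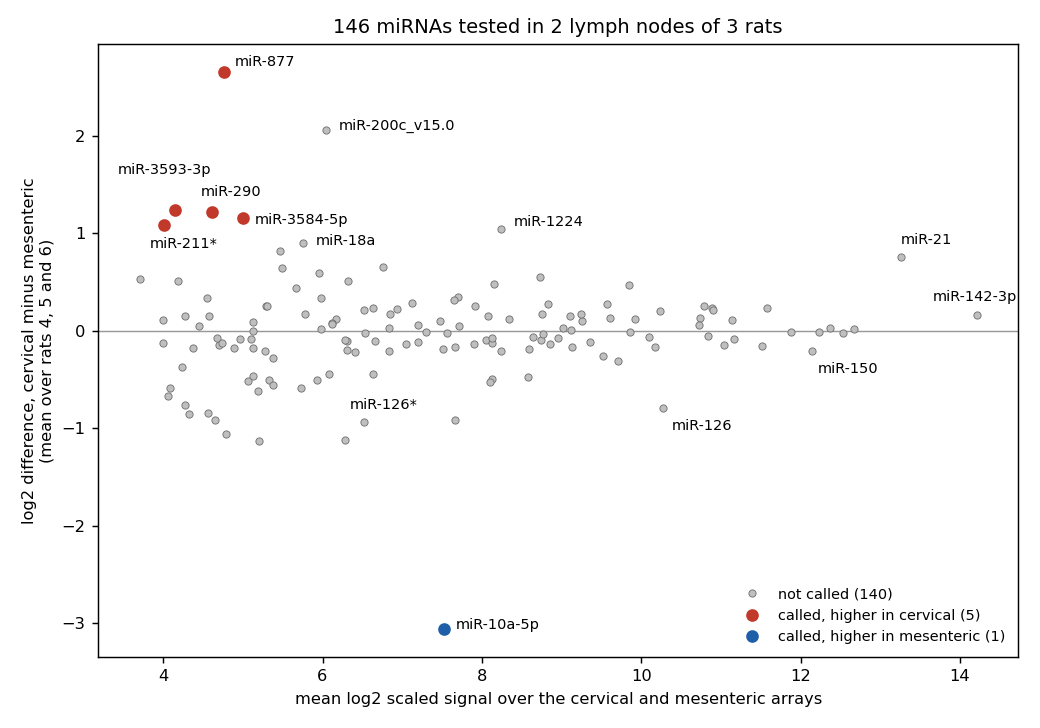
Difference between the nodes (log2, cervical minus mesenteric, mean of 3 rats) against the mean log2 scaled signal for the 146 miRNAs tested, 1 point each. The point for miR-10a-5p lies at -3.06 and that for miR-877, measured against the floor, at 2.65, and the 5 called on the cervical side are all among the dimmer miRNAs.

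The largest difference was that of miR-10a-5p. Its signal was 51.0, 55.2 and 91.2 in the cervical nodes of rats 4, 5 and 6, and 530, 541 and 516 in the mesenteric nodes. The groups were far from overlapping, the mesenteric values lay close together, and the cervical node of rat 6 was above the other cervical nodes. The level in the mesenteric node was 8.32-fold that in the cervical node (log2 difference -3.06, 95% interval -3.62 to -2.49, limma adjusted p = 0.00145). In rats 4, 5 and 6 separately the log2 difference was -3.38, -3.29 and -2.50. Without the cervical array of rat 4 it was -2.90 and was called in the unpaired fit (limma adjusted p = 0.00136). With both nodes of rat 4 left out, the paired fit did not call it. In the mandibular gland miR-10a-5p was at 12.4 ± 1.44 (SD, n = 3), close to the floor, and was detected on 0 of 3 arrays.

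Its relative miR-10b did not pass the test. The cervical signals were 302, 494 and 539, and the mesenteric signals 411, 457 and 457. The groups overlapped, the cervical node of rat 4 being lowest (log2 difference -0.03, 95% interval -0.53 to 0.47, limma adjusted p = 0.948). Without that array the cervical signals lay above the mesenteric ones. The log2 difference was then 0.23 in the unpaired fit and was not called (limma adjusted p = 0.266). The log2 difference of miR-10a-5p minus that of miR-10b was -2.93, -3.40 and -2.74 in rats 4, 5 and 6 (exact sign-flip test over 3 rats, two-sided p = 0.25, the smallest it allows). To what extent a probe for one of these near-identical RNAs binds the other was not tested. Of the other miRNAs of the HOX clusters on the array, miR-10a-3p, miR-196a, miR-196c and miR-615 were at the floor on all 6 node arrays, and miR-196b and miR-10b* exceeded it on 1 mesenteric array each, at 18.2 and 12.1.

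The level of miR-10a-5p was then followed through all 55 organs. The cervical node, with a mean of 65.8 ± 22.1 (SD, n = 3), was number 14 from the lowest. The 13 organs below it were the 13 organs of the head in the atlas, a grouping made after the order was seen: 5 parts of the brain with the medulla, pituitary gland, optic nerve, eyeball, Harderian gland (a gland of the orbit), tongue and the sublingual, mandibular and parotid glands. Of the 13, only tongue, medulla and parotid gland had it detected on all 3 arrays, so that the levels of the others hold signals not above background. The highest of the 13, parotid gland (65.2 ± 15.8), did not differ from the cervical node beyond the spread, nor did thymus (75.1 ± 15.4), the next above it. The mesenteric node (529 ± 12.3) was number 31, between liver (511 ± 67.6) and thyroid (550 ± 24.5), and its range overlapped that of both. Spleen was at 441 ± 33.8. Organs of the neck other than the nodes, as grouped here, were not low. Trachea was at 651 ± 85.1, thyroid at the value above and cervical spinal cord at 1002 ± 128. The mandibular gland, which lies next to the cervical nodes, was counted with the head, so that this split depends on the grouping. For miR-10b, the 13 head organs were below both nodes, together with 21 others that were below the mesenteric node, and the nodes were numbers 36 and 35.

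**Figure D3:**
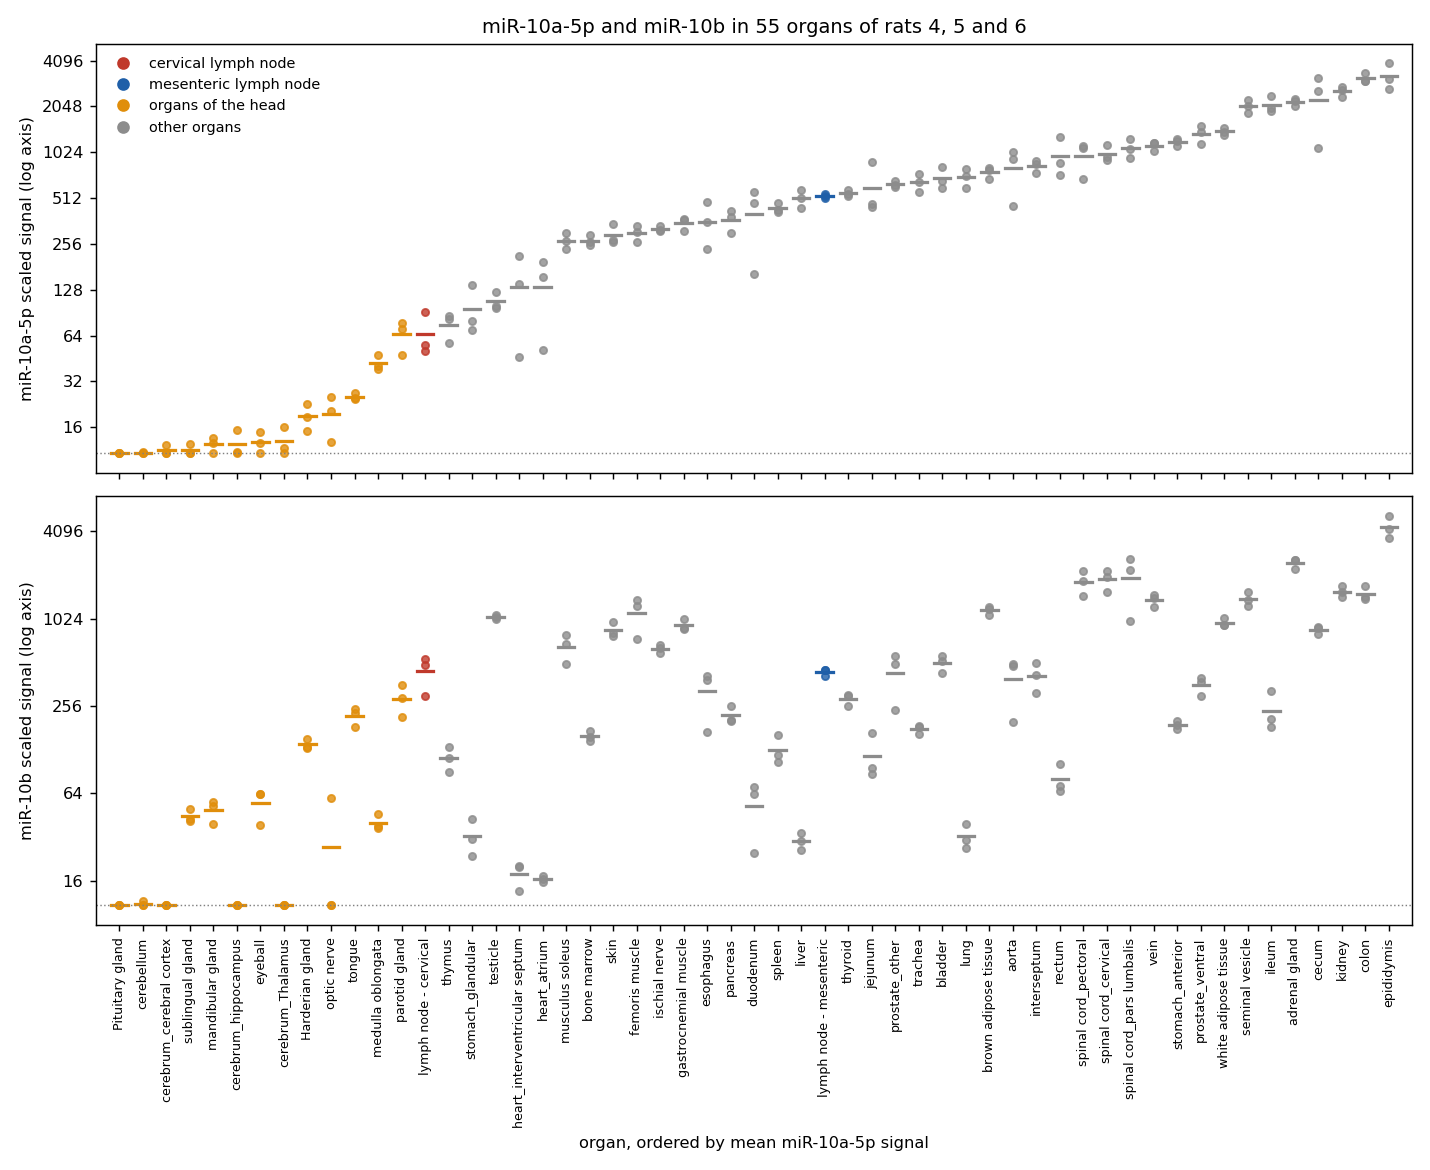
Scaled signal (log axis) of miR-10a-5p (top) and miR-10b (bottom) in 55 organs ordered by mean miR-10a-5p, 1 point per rat and a bar for the mean. The cervical node follows directly on the 13 organs of the head for miR-10a-5p at 65.8, the mesenteric node is at 529, and both nodes lie at 445 and 442 for miR-10b.

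The miRNAs that passed the test on the cervical side were miR-877, miR-3593-3p, miR-290, miR-3584-5p and miR-211*, and all were dim. Of these, only miR-3584-5p was detected on all 6 arrays. The other 4 were among the 146 tested because the cervical arrays detected them, that is, through the node in which they were high, and over the 130 miRNAs detected on all 6 arrays miR-10a-5p and miR-3584-5p were the 2 called. The signal of miR-877, a miRNA made from an intron of Abcf1, was 50.4, 77.2 and 81.2 in the cervical nodes, and was at the floor on all 3 mesenteric arrays, where 1 of 3 arrays detected it. Before the floor was set, its mesenteric signals were 10.4, 8.73 and 8.08, the first of them detected, so that each cervical node was far above each mesenteric node. The log2 difference of 2.65 (limma adjusted p = 0.00145) is thus that of the cervical signals from the floor, 6.29-fold, and not a measured ratio of the nodes. With all 3 mesenteric arrays at the floor, this p-value holds no spread among them. Over all settings tried the log2 difference ran from 0.65, with the floor 4 times as high, to 3.01. Among 55 organs the cervical node was second for miR-877 (mean 69.6), after pancreas (187) and before thymus (36.6), and the spleen was at the floor.

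For miR-3584-5p the cervical signals were 35.1, 57.2 and 53.6, and the mesenteric signals 17.6, 23.7 and 23.5. The groups did not overlap and rat 4 was lowest in both (log2 difference 1.15, SE 0.16, limma adjusted p = 0.0269). Over all settings tried the log2 difference of miR-3584-5p ran from 0.24 to 1.37, and it was called in 15 of 25. The signals of miR-290 were 28.3, 43.3 and 42.1 against 16.0, 17.9 and 14.4 (log2 difference 1.21, SE 0.20, limma adjusted p = 0.0438).

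Those of miR-211*, the minor arm of a hairpin in Trpm1, were 18.8, 25.5 and 26.7 against 11.4 in rat 4 and the floor in rats 5 and 6 (log2 difference 1.09, SE 0.19, limma adjusted p = 0.0462). Those of miR-3593-3p were 19.0, 35.0 and 30.7 against 11.8, 12.2 and the floor (log2 difference 1.24, SE 0.23, limma adjusted p = 0.0463). For miR-290, miR-211* and miR-3593-3p the groups did not overlap, and the lowest cervical array was that of rat 4. They were detected on 2, 1 and 2 of the 3 mesenteric arrays, close to the floor, so that their differences hold signals not above background and depend on the floor. Over all settings tried the log2 difference ran from 0 to 1.41 for miR-290, from 0 to 2.60 for miR-211* and from 0 to 2.67 for miR-3593-3p. With the floor 4 times as high none of the 6 miRNAs was called, and with the floor lowered to 0.5 of its value 3 were (miR-10a-5p, miR-877 and miR-3584-5p). Without the cervical array of rat 4, the unpaired fit called all 6, and without both nodes of rat 4 the paired fit called none.

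**Figure D4:**
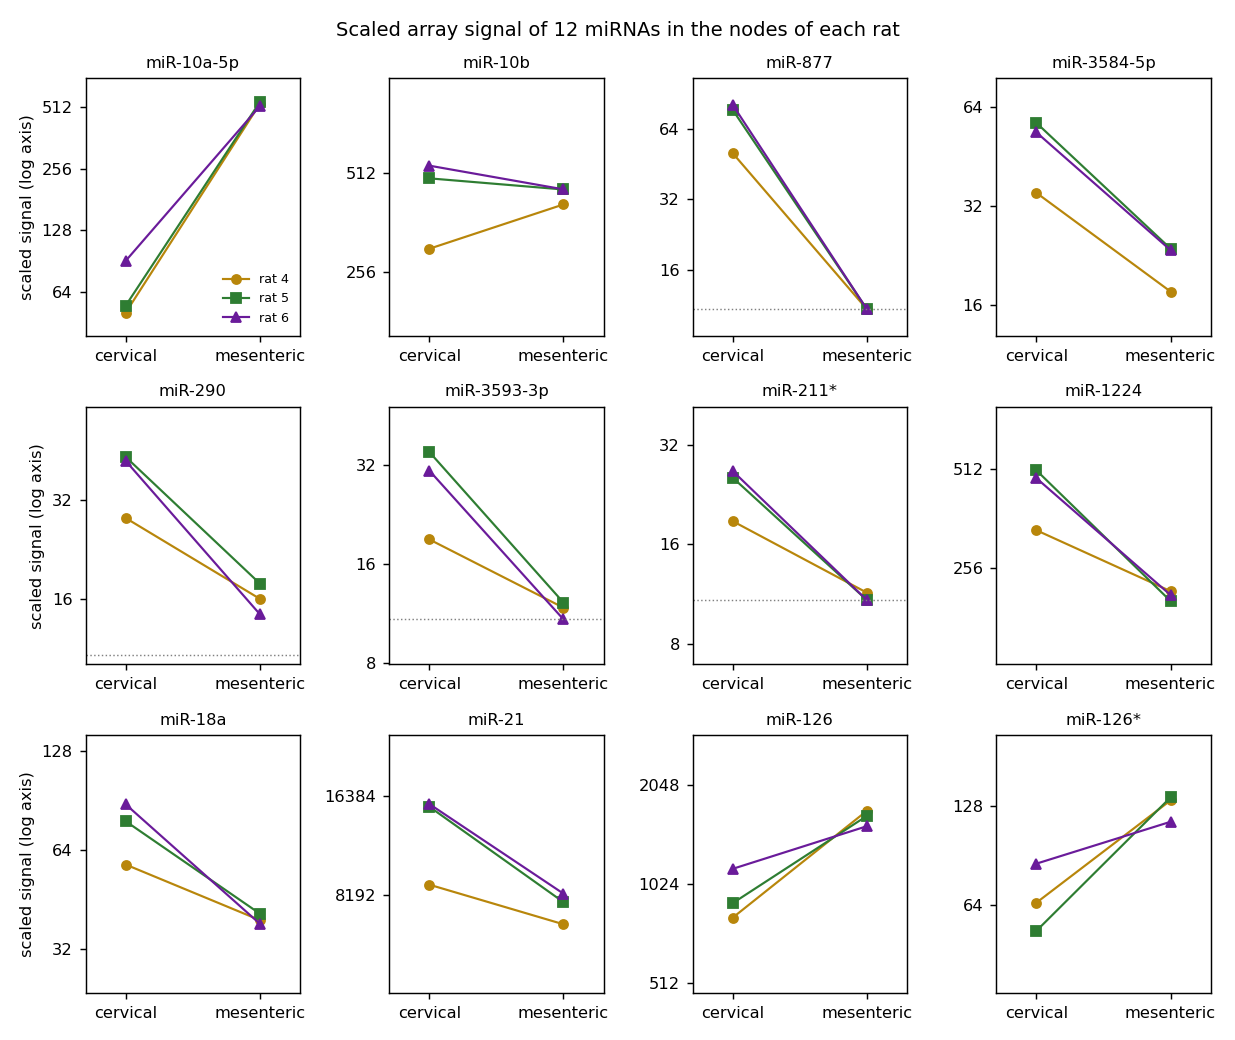
Scaled signal (log axis, scale per panel) of 12 miRNAs in the cervical and mesenteric node of rats 4, 5 and 6, joined by rat, with the floor as a dotted line where it falls in range. Each line slopes the same way for every miRNA shown except miR-10b, as the rule that named these miRNAs required. For those higher in the cervical node, rat 4 starts lowest.

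For each of the 5 miRNAs called on the cervical side the organ with the highest mean was pancreas, and 4 of the 5 had been tested only because the cervical arrays detected them. A highest mean in pancreas was found for 27 of all 146 tested (18.5%), and for 8 of the 12 miRNAs named on the cervical side and 0 of the 12 on the mesenteric side. Among these 27, a group formed after the values were seen and holding the 5 called, 10 had the cervical sign in all 3 rats, 2 the mesenteric sign and 15 mixed signs (17.8% and 20.5% of all 146 had the cervical and the mesenteric sign in all 3 rats), and the median log2 difference was 0.08. The pancreas arrays were the 3 dimmest of all arrays of perfused rats before scaling. The 75th percentile used for scaling was 121, 90.5 and 68.0 on them, against a median of 1782; scaled levels in pancreas are quotients with these small values. RNA quality per array was not given in the sources used here, and its part in the levels of these miRNAs was not tested.

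Next to the threshold on the cervical side stood miR-1224, whose signals were 333, 506 and 479 in the cervical and 217, 203 and 211 in the mesenteric nodes (log2 difference 1.04, limma adjusted p = 0.0545). It was far from the floor on all 6 arrays, the groups did not overlap, and it was called without the replicate block (limma adjusted p = 0.0311). The signals of miR-21, abundant in activated immune cells and in many epithelia, were 8805, 15196 and 15484 against 6673, 7791 and 8268 (0.76, limma adjusted p = 0.100). Those of miR-146b, known as a brake on inflammatory signalling, were 45.0, 60.2 and 65.7 against 32.5, 37.1 and 39.1 (0.64, limma adjusted p = 0.105). The groups did not overlap for either, and the cervical node of rat 4 was again the lowest of the cervical nodes. In a fit over 15 arrays of 5 lymphoid organs that left out the cervical array of rat 4, an alternative added after the values were seen, 12 miRNAs were called, among them miR-1224 (log2 difference 1.21, limma adjusted p = 0.000109), miR-21 (1.05, limma adjusted p = 0.00236) and miR-146b (0.79, limma adjusted p = 0.0185). With that array kept, the 15-array fit called neither miR-21 nor miR-146b, nor did the fit without the replicate block (limma adjusted p = 0.188 and 0.128), and over all settings tried miR-21 was called in 6 of 25 and miR-146b in 5 of 25.

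The miR-17-92 cluster and its relatives were described as a list of 10 miRNAs, all detected and tested. None passed the test in either direction. The median log2 difference was 0.27, beside -0.01 over all tested, and it was -0.01, 0.29 and 0.52 in rats 4, 5 and 6. The miRNA of the cluster with the largest difference was miR-18a, with 58.0, 78.5 and 88.3 in the cervical and 39.3, 41.1 and 38.3 in the mesenteric nodes (0.90, limma adjusted p = 0.0733). Its groups did not overlap, as was the case for 12.3% of all miRNAs tested on the cervical side, and it was the only one of the 10. Leaving out the cervical array of rat 4, 9 of the 10 did not overlap, against 30.1% of all tested. Members of the list lie in the same clusters and some have close sequences, so that the 10 are not independent counts. In alternative fits, miR-18a was called without the replicate block (limma adjusted p = 0.0372), and in the 15-array fit without the array of rat 4 (1.06, limma adjusted p = 0.00905), and the unpaired fit without that array called miR-18a, miR-17-5p and miR-19a (limma adjusted p = 0.00296, 0.0470 and 0.0470).

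Of the cluster, miR-17-5p and miR-20a-5p share a seed, and miR-19a-3p and miR-19b-3p another. Those of miR-18a-5p and miR-92a-3p each differ from these. The sequences are shown for the gene on chromosome 15 in their order along the plus strand, from chr15:98587861-98587883 for miR-17-5p to chr15:98588602-98588622 for miR-92a-3p.
miR-17-5p: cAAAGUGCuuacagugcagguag
miR-18a-5p: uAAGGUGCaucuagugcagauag
miR-19a-3p: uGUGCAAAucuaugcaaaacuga
miR-20a-5p: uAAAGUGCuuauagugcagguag
miR-19b-3p: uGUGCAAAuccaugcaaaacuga
miR-92a-3p: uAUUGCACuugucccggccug

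The seed AAAGUGC of miR-17-5p and miR-20a-5p was also that of miR-20b-5p, on the X chromosome, and of miR-106b-5p and miR-93-5p, which lie with miR-25 within Mcm7 on chromosome 12. The log2 differences of the members with this seed were 0.34 for miR-17-5p, 0.27 for miR-20a, 0.27 for miR-20b-5p, 0.15 for miR-106b and 0.28 for miR-93. With the seed GUGCAAA, miR-19a had 0.48 and miR-19b 0.21, and with the seed AUUGCAC, miR-92a had -0.05 and miR-25 0.0040. Differences among the members of the cluster thus ran from -0.05 for miR-92a, whose cervical signals of 1274, 2175 and 2118 overlapped the mesenteric 1583, 1940 and 2118, to 0.90 for miR-18a. The sequences of miR-17-5p, miR-19b-3p and miR-92a-3p also occur in a second cluster on the X chromosome, and the array cannot tell the copies apart.

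On the mesenteric side, miR-126 and miR-126*, both arms of a hairpin within Egfl7 that is expressed in endothelium, had the lowest adjusted p on the mesenteric side after miR-10a-5p, and did not pass.
miR-126a-3p (miR-126 on the array): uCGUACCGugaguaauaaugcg
miR-126a-5p (miR-126* on the array): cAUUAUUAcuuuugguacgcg

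The signals of miR-126 were 808, 894 and 1137 in the cervical nodes and 1707, 1647 and 1532 in the mesenteric nodes (log2 difference -0.80, SE 0.19, limma adjusted p = 0.0963). Those of miR-126* were 64.9, 53.3 and 85.3 against 133, 136 and 114 (-0.93, SE 0.23, limma adjusted p = 0.0963). The groups did not overlap for either arm, and rat 6 had the smallest difference for both. Non-overlap on the mesenteric side was found for 7.53% of all tested. Both arms were called without the replicate block (limma adjusted p = 0.0385 for each), but neither was in the 15-array fit without the cervical array of rat 4 (limma adjusted p = 0.215 and 0.382). In the unpaired fit without that array miR-126 was called (log2 difference -0.69, limma adjusted p = 0.0410) and miR-126* was not (-0.92, limma adjusted p = 0.0607). Over 55 organs the arms had their highest means in lung (4330 and 239), and the mesenteric node was number 10 and number 6 from the top.

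Over the list of 14 miRNAs of vessels and stroma, 12 were tested and none passed. The median log2 difference was -0.18, and 5 of 12 had the mesenteric sign in all 3 rats, 0 the cervical sign, against 20.5% and 17.8% of all tested. For miR-143, of smooth muscle and fibroblasts, the signals were 917, 639 and 720 against 1045, 949 and 805 (-0.31, limma adjusted p = 0.484). For miR-145, from the same transcript, they were 18.0, the floor and 13.7 against 24.4, 22.2 and 16.5 (-0.58, limma adjusted p = 0.202). These overlapped between the nodes, and the overlap was due to the cervical array of rat 4 in both. Left out in the unpaired fit, the log2 differences were -0.45 and -0.77 (limma adjusted p = 0.143 and 0.0844). Without that array 7 of 12 did not overlap, beside 13.7% of all tested on the mesenteric side. The 12 hold both arms of a hairpin and miRNAs of the same transcript, so that they are not independent counts. The fibroblast miRNAs miR-199a-3p and miR-214 had no common direction, with log2 differences of 0.18 and -0.11.

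**Figure D5:**
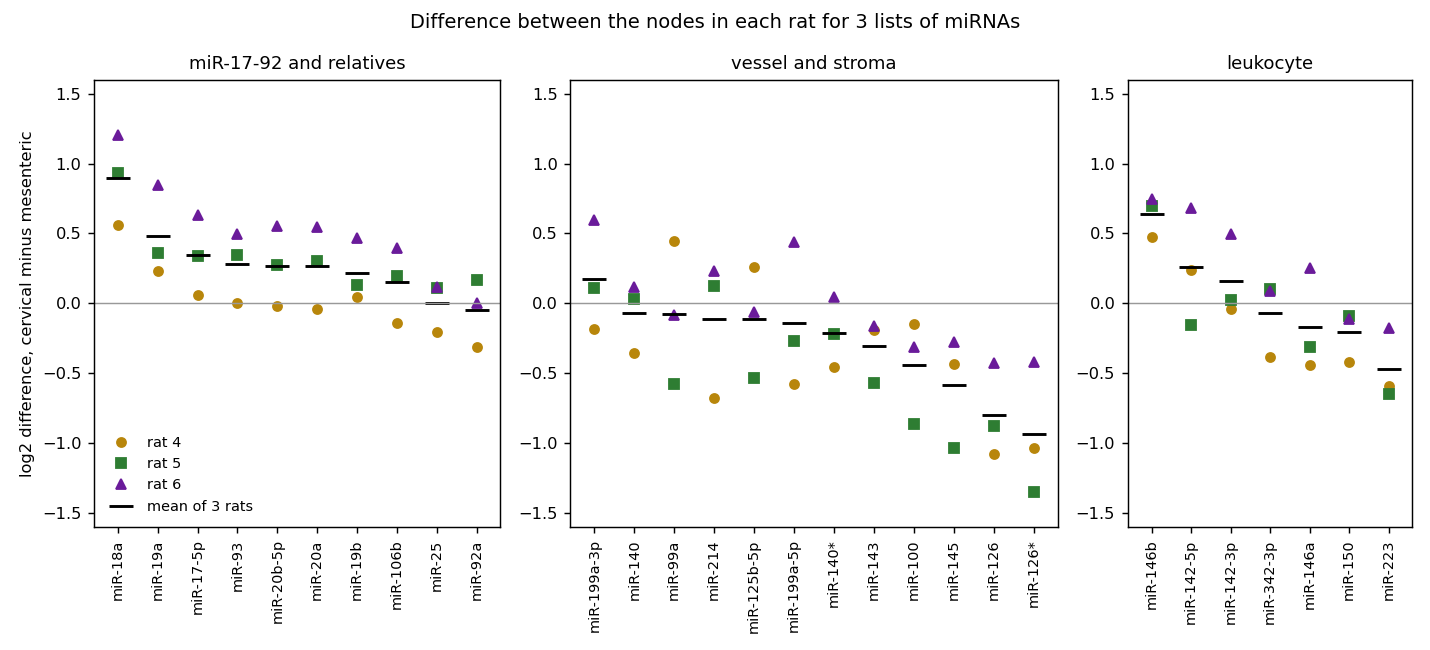
Log2 difference between the nodes (cervical minus mesenteric) in each rat, and the mean of 3 rats, for the tested members of 3 lists. Rat 4 lies below rats 5 and 6 for each member of the miR-17-92 list, with a median of -0.01 against 0.29 and 0.52, and miR-126 and miR-126* are below 0 in every rat.

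Among 7 tested leukocyte miRNAs none passed the test, and the median log2 difference was -0.07. For miR-223, the miRNA of granulocytes and monocytes, the signals were 241, 360 and 395 in the cervical and 362, 564 and 446 in the mesenteric nodes (-0.47, limma adjusted p = 0.202). It had the mesenteric sign in all 3 rats, but the groups overlapped. Without the cervical array of rat 4 its log2 difference was -0.26 in the unpaired fit (limma adjusted p = 0.490). On the cervical array of rat 4 the level of each leukocyte miRNA was below that of rats 5 and 6, with a log2 deviation from their mean of -0.70 for miR-142-3p, -0.57 for miR-150 and -0.65 for miR-223. The 4 tested miR-181 miRNAs, known from lymphocyte development, had a median of -0.18 and none passed. Erythroid miR-144 was at the floor on all 6 arrays and miR-451 lay between 13.6 and 32.8, in rats whose blood had been washed out. Of the gut mucosa list, miR-194 and miR-215 were at the floor in the mesenteric nodes, and miR-192 was between 13.9 and 17.8 in both nodes.

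None of the other 9 miRNAs named on the mesenteric side, miR-223 among them, passed the test; their difference had the same sign in every rat, which the rule that named them required. For miR-338, a miRNA of the neural list, the signals were 54.3, 50.4 and 48.5 against 74.0, 90.1 and 56.6 (log2 difference -0.50, limma adjusted p = 0.202), and for miR-322 they were 78.1, 80.0 and 98.3 against 119, 111 and 116 (-0.44, limma adjusted p = 0.202). The groups did not overlap for either. For miR-3558-3p the signals were 68.5, 19.9 and 109 in the cervical against 108, 118 and 119 in the mesenteric nodes, and for miR-3588 they were 178, 80.3 and 224 against 286, 269 and 276 (log2 difference -1.12 and -0.91, limma adjusted p = 0.236 and 0.199). In both the cervical array of rat 5 was lowest. The same array was at the floor for miR-327 and miR-331*, where rat 6 had 35.3 and 52.4. In the other direction, the mesenteric array of rat 5 had 192 for miR-3085, 160 for miR-702-3p, 144 for miR-409-3p and 153 for miR-2985, while the other 5 node arrays lay between 17.5 and 39.6 for these 4. These miRNAs were chosen after their values were seen. The median of their deviation from the other arrays of the same organ was 2.76 (log2) on this array, which their choice fixes as high, and lay between -0.48 and 0.57 on the other 7 arrays of the slide. For 6 miRNAs chosen as low on the cervical array of rat 5, the 4 named above among them, it was -1.27, between -0.12 and 0 on the other 7 arrays of its slide, and between -1.36 and 1.28 on the arrays of other slides, so that other arrays were as low.

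Of the 10 miRNAs with the highest mean signal over the nodes, none passed the test, and apart from miR-21 their log2 differences lay between -0.21 and 0.23. Let-7a, for instance, had 5218, 5396 and 5461 in the cervical and 5102, 5228 and 5476 in the mesenteric nodes (0.02, SE 0.16, limma adjusted p = 0.948). For miR-16 they were 4749, 6249 and 6737 against 5609, 6303 and 5984 (-0.03, limma adjusted p = 0.948).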

How the data were processed

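Per the labels, the deposited scanner files came from Agilent Feature Extraction 10.7.3. The authors deposited them with spot-wise signal intensities already corrected for background, together with their own normalized intensities by miRNA. RNA was prepared with the miRNeasy kit and labelled with Cy3. Here outlier spots were left out, spots were averaged per probe and probes per miRNA, and each array was divided by its 75th percentile over 37 miRNAs present on every array and multiplied by the mean of these (2118), with a floor of 10.8 before log2. The 6 node arrays were fitted with limma 3.58.1 (lmFit, eBayes, Benjamini-Hochberg over 146 miRNAs, two-sided, called at adjusted p under 0.05) with the rat as a block. Each same-numbered pair came from 1 animal, and deviations of the same rat correlated at 0.14, 0.08 and 0.21, those of different rats at -0.12 to -0.02. The deviations were taken from the mean of each node, which ties these values to each other. Both nodes of a rat also shared a scan day, so that these correlations cannot tell animal from day. The script was tested on simulated data. Alternatives covered scaling, floor, background, summary of spots, detection filter, block, arrays in the fit and left-out arrays. Columns left unmatched numbered 0. Named miRNAs are the members of fixed lists, the 12 largest differences per direction of 1 sign in all 3 rats (called ones first, filled up with miRNAs detected on all 6 arrays), the 10 brightest, and the 10 largest deviations of the cervical array of rat 4 each way. The members and lists were chosen with earlier results of these data known. Precision is limited by 3 rats per node.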

Additional observations from a re-analysis of the deposited data

How the results depend on the processing

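With the rat as a fixed replicate block 6 miRNAs were called. There were 10 with no replicate block and 10 with rat as a random replicate block (the 6 and miR-1224, miR-18a, miR-126 and miR-126* in both), and 12 with slide as a random block. The count was 19 with scaling by the miRNAs detected on all 6 node arrays (8 higher in cervical and 11 in mesenteric), 13 with normexp background (taken from the spot median, since no mean signal was used), 11 in the authors' table (5 and 6) and 17 with trend and robust variances (10 and 7). It was 3 with the floor lowered, 0 with the floor 4 times as high, 0 with quantile normalization (limma, 23 at an unadjusted p under 0.05, 14 with the higher floor), 2 over miRNAs detected on all 6 arrays, and 0 over those detected on at least 1 of 6 or over the whole array (26 and 19 unadjusted). With the replicate block and more organs, 9 were called over 15 lymphoid arrays and 21 over all arrays of perfused rats (10 and 11). Scaling by the whole array called 7 (3 and 4). Leaving out 1 rat gave 0 to 6, with 0 without rat 4 and 2 without rat 6, and leaving out the cervical array of rat 4 gave 18 with no block (16 and 2), and, as alternatives added after the data were seen, 12 over 15 and 14 over all perfused. The median difference over all tested was -0.01, and 0.12 with normexp, 0.14 with medians over spots and -0.11 with scaling by the whole array. None of the called miRNAs changed sign, although miR-290, miR-211* and miR-3593-3p were at 0 difference with the higher floor, where all 6 arrays lay at it. The difference of miR-10a-5p ranged from -3.33 to -2.10 and was called in 20 of 25 settings, and miR-877 from 0.65 to 3.01 in 19 of 24. The cause of these changes was not tested. The share of mandibular gland on the cervical array of rat 4 was 21%, 24% with mesenteric nodes as the node profile, and 40.2% on linear signals, an alternative added after the data were seen. With 3 rats, 2 residual degrees of freedom and most calls near the floor, the count itself is imprecise.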
